A study of Mus musculus with 21 samples.

Results

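The TREM receptors and the proteins that carry their signal were followed here as 10 genes: the receptor genes Trem1, Trem2, Trem3, Treml2 and Treml4, the adaptor genes Tyrobp (the DAP12 protein) and Hcst (DAP10), and Syk, Btk and Card9 from the pathway inside the cell. They were taken by gene symbol from 2 deposited tables of RNA sequencing of primary mouse brain microglia, each of which listed 54532 symbols. All 10 genes were present in both tables, and all 10 passed the minimum mean of 10 normalized counts for testing. The study asked how deletion of Trem1 bears on gene expression of these cells with age and in a mouse model of amyloid disease, 5XFAD. One table, called the aging table here, held wild type and Trem1-/- libraries, each from young and from aged mice. The other, the 5XFAD table, held adult wild type, 5XFAD and 5XFAD mice crossed to carry Trem1+/-. Each of the 7 groups had n = 3 libraries. Ages were given as words (young, aged, adult) and not in months. 5XFAD mice carry transgenes driven by the neuronal Thy1 promoter and form amyloid plaques. The labels named neither the exons removed in the Trem1 allele nor the way microglia were isolated, and did not say whether each library was a different mouse. The p-values therefore measure the spread between libraries, which may be technical.

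TREM receptors are cell-surface proteins, mainly of myeloid cells, with an immunoglobulin domain. Most have a short tail that cannot signal alone. Apart from the Treml2 receptor, those followed here pair within the membrane with DAP12. The tyrosine motif of DAP12 (an ITAM) is phosphorylated by Src-family kinases and then recruits the kinase Syk. From Syk the signal passes to phospholipase C gamma, Btk and PI 3-kinase, and through Card9 with Bcl10 and Malt1 to NF-kB. TREM1 amplifies inflammatory responses of neutrophils and monocytes, whereas TREM2 is the family member for which microglia are best known: it binds lipids and apolipoprotein E and is needed for the microglial response to plaques.

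The 5 receptor genes lie in 1 cluster on chromosome 17 of GRCm38, all on the plus strand, over 121.38 kb. By GENCODE M21 the order is Trem1 (48232768 to 48246924), Trem3 (48247777 to 48258841), Treml4 (48264295 to 48275360), Treml2 (48299498 to 48312533) and Trem2 (48346401 to 48354147). Trem3 starts 852 bases after the end of Trem1, and the gene B430306N03Rik sits between Treml2 and Trem2. Tyrobp (30413760 to 30417585, plus strand) and Hcst (30417712 to 30419854, minus strand) lie tail to tail on chromosome 7 with 126 bases between them. Syk is on chromosome 13 (52583173 to 52648792, plus strand), Card9 on chromosome 2 (26352176 to 26360918, minus strand) and Btk on chromosome X (134542336 to 134583570, minus strand). No exon of a member shared 100 or more bases at 95% identity or above with another gene. On the opposite strand, Gm13562 overlapped 87 exonic bases of Card9 (3.79% of its exons), and whether reads were counted by strand was not stated.

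Start-site windows (250 bases before to 50 after the start, RefSeq, GRCm38.p6) were available for 7 of the 10 genes, as 8 windows because Syk had 2. They were searched on both strands for AGGAAGT, the core bound by the myeloid factor PU.1 and other Ets proteins. It was present in 3 of the 8 windows, those of Trem1, Hcst and Card9, and in 9.35% of all 32851 mouse start-site windows of the same length. Shown first are the windows of Trem1 and Trem2, from the outer ends of the receptor cluster, because these genes differed in opposite directions between aged and young wild type; Hcst and Card9 follow because they hold the same letters as Trem1. Capitals mark AGGAAGT or its reverse complement. In the Trem2 window, which lacks it, they mark TGANTCA, a loose form of the AP-1 site in which N is any base.
Trem1, chr17:48232489-48232788, plus strand: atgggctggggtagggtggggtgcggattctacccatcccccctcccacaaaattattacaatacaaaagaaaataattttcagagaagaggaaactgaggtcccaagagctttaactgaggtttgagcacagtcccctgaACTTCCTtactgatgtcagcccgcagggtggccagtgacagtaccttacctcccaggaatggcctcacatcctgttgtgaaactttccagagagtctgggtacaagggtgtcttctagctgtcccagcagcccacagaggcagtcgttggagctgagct
Trem2, chr17:48346151-48346450, plus strand: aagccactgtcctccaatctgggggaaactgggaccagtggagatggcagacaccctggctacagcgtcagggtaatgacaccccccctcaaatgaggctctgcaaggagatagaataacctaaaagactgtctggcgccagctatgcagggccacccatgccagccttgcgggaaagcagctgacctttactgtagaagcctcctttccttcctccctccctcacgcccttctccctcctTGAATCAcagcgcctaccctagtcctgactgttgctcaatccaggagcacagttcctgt
Hcst, chr7:30419805-30420104, minus strand: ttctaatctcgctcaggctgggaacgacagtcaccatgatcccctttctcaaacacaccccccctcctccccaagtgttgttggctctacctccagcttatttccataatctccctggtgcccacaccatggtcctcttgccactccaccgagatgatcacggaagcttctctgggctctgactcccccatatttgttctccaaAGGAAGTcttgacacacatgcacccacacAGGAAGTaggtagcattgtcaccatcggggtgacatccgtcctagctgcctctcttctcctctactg
Card9, chr2:26360860-26361159, minus strand: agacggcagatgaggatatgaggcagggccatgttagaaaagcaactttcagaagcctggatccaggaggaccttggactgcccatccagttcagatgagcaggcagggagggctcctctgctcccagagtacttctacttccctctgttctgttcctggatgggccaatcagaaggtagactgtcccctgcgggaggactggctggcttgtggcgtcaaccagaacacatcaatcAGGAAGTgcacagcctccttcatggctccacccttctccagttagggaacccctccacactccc
The Trem1 match lay on the minus strand, starting 109 bases before the start site. Hcst had 2 matches, 46 and 17 bases before its start, and Card9 had 1, 14 bases before its start. TGANTCA occurred in 1 of the 8 windows, in Trem2 9 bases before the start, and in 7.81% of all windows. In Trem2 it read TGAATCA, and whether AP-1 factors bind this form was not tested. The C/EBP letters TTGCNNAA also occurred only in Trem2 among these windows, against 10.8% of all windows. The composite element of Ets and IRF factors was found in 0 of the 8, against 2.72% of all windows. Such matches describe letters and not bound sites.

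Depth was 8600878 to 19411434 gene reads per library for aging and 9264999 to 18698707 for 5XFAD. A level of 3 reads was worth 2.06 to 4.51 and 2.26 to 4.36 normalized counts, and was not used as a filter. Replicates 2 of adult wild type and of 5XFAD had the lowest median correlation with the other libraries of their table (0.842 and 0.849, against 0.874 to 0.915 for the other 7). All 12 microglia markers were measured in every group, with a summed level of 327517 to 509575 normalized counts per library. Markers of neutrophils and monocytes were present in every library as well, at summed levels that differed between groups. For B cells, 1 of the 7 listed markers was high enough to test in the aging table. In RNA of a whole cell preparation, more cells of a type and more RNA per cell cannot be told apart.

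Trem1, the targeted gene, was present in every library labelled Trem1-/-, at a higher level than in wild type in young mice and, without passing the test, at a lower mean in aged mice. Young wild type libraries had 25.2, 7.65 and 8.74 normalized counts, and the libraries labelled young Trem1-/- had 89.4, 99.8 and 89.5. Aged wild type libraries had 269, 188 and 237, and those labelled aged Trem1-/- had 124, 124 and 244. The libraries labelled young Trem1-/- were thus all above young wild type, and the aged groups overlapped. In the 5XFAD table Trem1 had 62.7, 0 and 30.2 normalized counts in adult wild type, 13.7, 32.0 and 36.8 in 5XFAD, and 25.1, 18.1 and 38.3 in the libraries labelled 5XFAD Trem1+/-. All 3 of these groups overlapped, and their means (31.0, 27.5 and 27.2) lay within 1 SD of one another. Without the position of the deletion, a count over the whole gene cannot show whether the remaining transcript encodes the receptor, so the labels are used below as names of libraries only.

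**Figure D1:**
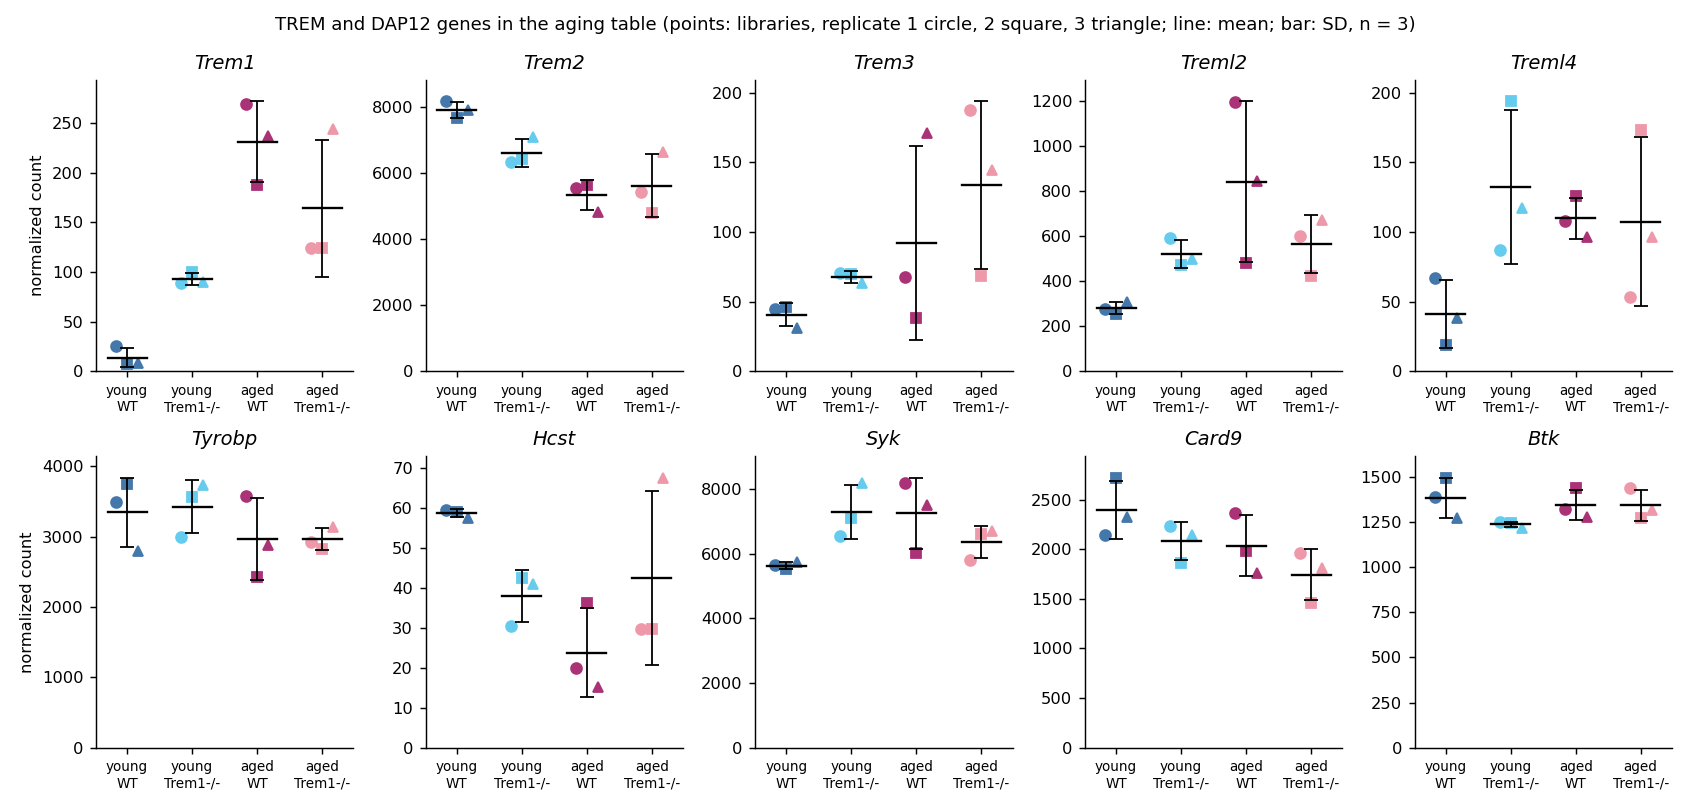
Normalized counts of the 10 genes in the aging table, 1 panel per gene, with the 4 groups along the horizontal axis; points are single libraries, lines are means and bars are SD (n = 3). Trem1 was lowest in young wild type (mean 13.9) and highest in aged wild type (mean 231), whereas Trem2 was highest in young wild type (mean 7919).

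The genes differed widely in level. They were set side by side per kb of exon, with the exons of all annotated transcripts of a gene merged. This length was 4946 bases for Trem2, 994 for Trem3 and 667 for Tyrobp. It can exceed the length of the transcript expressed, so the order of genes and the receptor shares below depend on it. On this scale the mean over the 12 aging libraries was 4762 normalized counts for Tyrobp, 1288 for Trem2, 900.02 for Card9, 709 for Syk and 421 for Btk. The other 5 were at 112 (Treml2), 84.1 (Trem3), 56.5 (Hcst), 49.0 (Treml4) and 41.9 (Trem1). In the 5XFAD table the order was the same except that Hcst (74.7) stood above Trem3 (30.4), and Trem1 was again last at 9.52. Neighbours among the lowest genes were not separated by their spread: in aged wild type, Trem1 had 77.2 and Trem3 93.0 normalized counts per kb, and the Trem3 libraries varied from 38.4 to 171 normalized counts.

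Trem2 made up most of the receptor transcripts in young wild type, and a smaller share in aged libraries. Of the summed level of the 5 receptors per kb, Trem2 held 92.9% ± 0.76 (SD, n = 3) in young wild type, 83.1% ± 1.80 in the libraries labelled young Trem1-/-, 73.3% ± 7.18 in aged wild type and 76.1% ± 1.59 in those labelled aged Trem1-/-. Every young wild type library (92.0% to 93.4%) was above every other library of the aging table (67.4% to 85.0%). Trem1 held 0.264% of the summed level in young and 5.21% in aged wild type, and Treml2 held 3.31% and 11.4%. These shares were not tested. The summed level itself was 1724 ± 68.2 normalized counts per kb in young and 1476 ± 91.1 in aged wild type. In the 5XFAD table Trem2 held 85.1% to 94.4% in adult wild type, 88.6% to 92.4% in 5XFAD and 90.6% to 92.9% in the libraries labelled 5XFAD Trem1+/-, which overlapped.

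**Figure D2:**
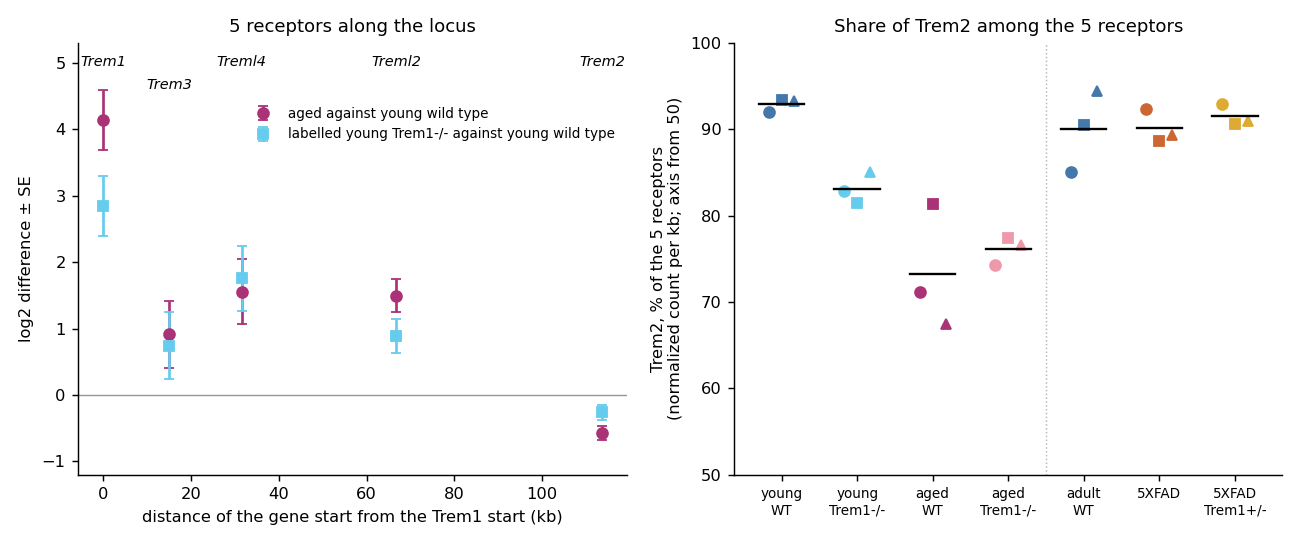
Left, log2 difference (± SE of the fit) of the 5 receptor genes against the distance of each start from the Trem1 start in kb, with young wild type as the reference for aged wild type and for the libraries labelled young Trem1-/-, 2 comparisons that share the young wild type libraries; right, Trem2 as a percentage of the summed receptor level per kb in each library (axis from 50%), with lines at the means. The 3 young wild type libraries sit between 92.0% and 93.4%, above all other libraries of the aging table.

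Between aged and young wild type, 5 of the 10 genes passed the test: Trem1, Treml2, Treml4 and Syk rose and Trem2 fell. Across all 16086 genes tested, 8.67% passed in either direction, 6.43% upward and 2.24% downward. Of these calls 74.2% were higher, against 99.1% with libraries scaled to the microglia markers. The median log2 difference was 0.15 over the 10 genes and -0.01 over all genes tested. Groups did not overlap for 6 of the 10 genes, against 26.2% of all genes.

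Trem1 rose by a log2 difference of 4.14 ± 0.45 (limma, adjusted p = 1.67e-06), a ratio of means of 16.7. Every aged wild type library (188 to 269) was above every young one (7.65 to 25.2), with counts of 242 to 295 reads against 7 to 27. The rise passed the test without any 1 of the 6 libraries (3.85 to 4.65).

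Trem2 fell. Its normalized counts were 8175, 7674 and 7907 in young wild type and 5551, 5638 and 4826 in aged wild type, without overlap. The log2 difference was -0.57 ± 0.11 (limma, adjusted p = 0.00113), a ratio of 0.674. The microglia markers moved with it: 8 of 12 fell, with a median log2 difference of -0.36, and their summed level was 452029 to 509575 in young and 352798 to 389549 in aged wild type. With libraries scaled to the microglia markers the difference was -0.19 (adjusted p = 0.240) and no longer passed.

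Treml2, a receptor without the charged membrane residue for DAP12 and known from neutrophils, macrophages and lymphocytes, had 279, 254 and 308 normalized counts in young wild type. In aged wild type it had 1198, 483 and 847. All aged libraries were higher, but they were spread over more than the whole range of the young ones. The log2 difference was 1.49 ± 0.25 (limma, adjusted p = 0.000541).

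Treml4, which pairs with DAP12 and is known from spleen macrophages and monocytes, had 67.2, 18.6 and 38.4 normalized counts in young and 108, 125 and 96.4 in aged wild type. The log2 difference of 1.56 ± 0.49 was close to the threshold (limma, adjusted p = 0.0479). It was lost when any 1 of 5 libraries was left out (all but young wild type replicate 1), with adjusted p from 0.0891 to 0.244. Trem3, the mouse DAP12-coupled receptor next to Trem1, had 44.8, 45.9 and 31.4 normalized counts in young and 67.8, 38.4 and 171 in aged wild type, and the groups overlapped (0.91 ± 0.51, adjusted p = 0.313).

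Neither adaptor passed. Tyrobp, the DAP12 gene itself, had 3494, 3748 and 2795 normalized counts in young and 3583, 2428 and 2879 in aged wild type, which overlapped (-0.18 ± 0.13, limma adjusted p = 0.483). Hcst, which couples receptors to PI 3-kinase, had 59.7, 59.0 and 57.7 in young and 20.0, 36.3 and 15.3 in aged wild type. Its aged libraries were all lower, from 18 to 53 reads each, and the log2 difference of -1.36 ± 0.58 did not pass (limma, adjusted p = 0.161).

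Of the downstream genes, Syk had 5643, 5525 and 5739 normalized counts in young and 8195, 6030 and 7509 in aged wild type, without overlap. Its log2 difference was 0.35 ± 0.11 (limma, adjusted p = 0.0471). The call was lost without any 1 of 5 libraries (all but aged wild type replicate 2), with adjusted p from 0.0908 to 0.221. Card9 had 2144, 2721 and 2320.1 in young and 2366, 1980 and 1757 in aged wild type and did not pass (-0.24 ± 0.14, adjusted p = 0.330). Btk ranged from 1271 to 1492 in young and from 1275 to 1436 in aged wild type and differed by less than 1 standard error.

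Markers of other myeloid cells moved with the receptors that rose. Of 13 neutrophil markers, 12 rose between young and aged wild type (median log2 difference 3.03), and their summed level was 16720 to 25097 normalized counts in young and 77298 to 136473 in aged libraries. Of 11 monocyte markers, 10 rose (median 2.97), with sums of 2297 to 4958 and 17584 to 33069. Border macrophage markers (1 of 7 rose) had sums of 769 to 1300.5 and 2574 to 4448. The part of these cells in the differences of Trem1, Treml2, Treml4 and Syk was not tested.

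**Figure D3:**
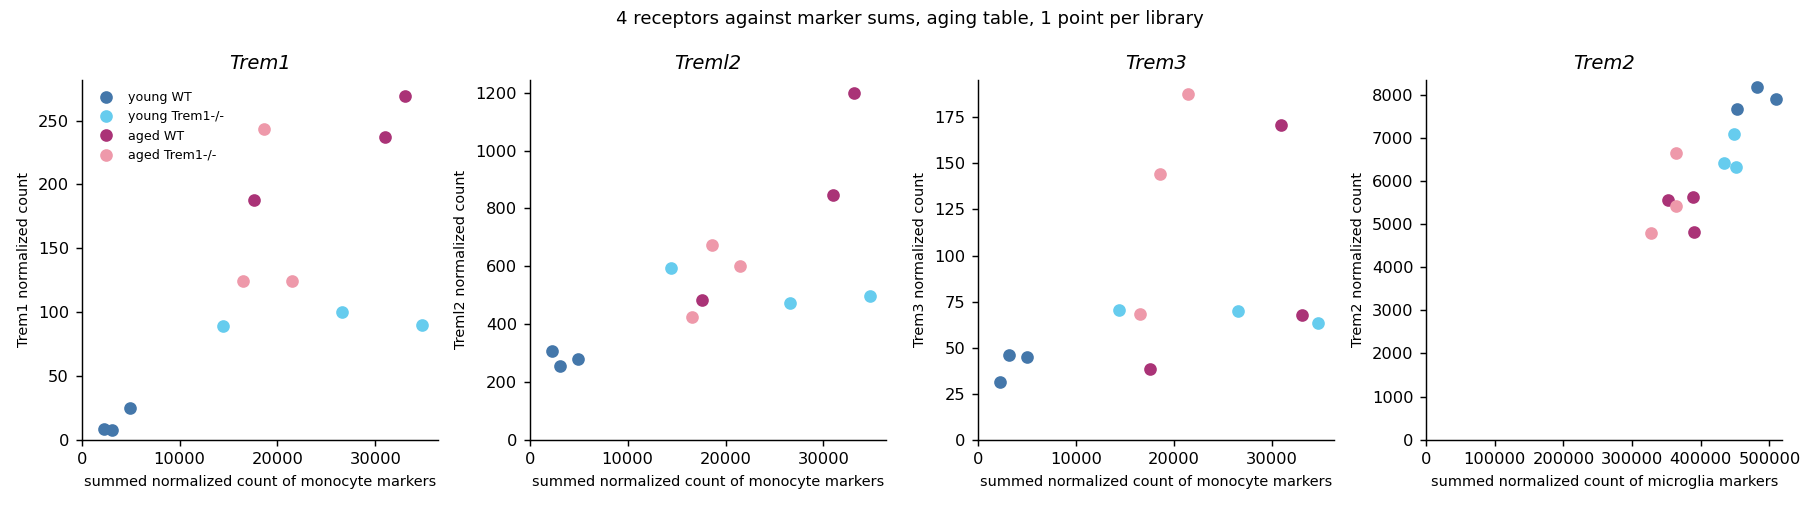
Normalized counts of Trem1, Treml2 and Trem3 against the summed normalized count of 11 monocyte markers, and of Trem2 against that of 12 microglia markers, in the 12 libraries of the aging table (1 point each, coloured by group). Young wild type has the lowest monocyte sums (2297 to 4958) and the highest microglia sums (452029 to 509575), the nearest other library being at 451950.

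The libraries labelled young Trem1-/- differed from young wild type in 1 of the 10 genes, Trem1 itself, which was higher; 2.58% of all genes tested passed. Its log2 difference was 2.85 ± 0.45 (limma, adjusted p = 0.000622), a ratio of means of 6.70. The median log2 difference was 0.20 over the 10 genes and -0.01 over all genes. Groups did not overlap for 8 of the 10 genes, 5 higher (11.3% of all genes) and 3 lower (9.05%), against 20.4% of all genes in either direction.

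Treml2 had 593, 473 and 497 normalized counts in the libraries labelled young Trem1-/-, all above the 254 to 308 of young wild type. The log2 difference was 0.89 ± 0.25 and missed the threshold (limma, adjusted p = 0.0663). Treml4 had 86.8, 194 and 117 (1.75 ± 0.49, adjusted p = 0.0552), and Syk had 6559, 7099 and 8191 (0.36 ± 0.11, adjusted p = 0.0862). Both were above all young wild type libraries and missed the threshold. Their calls depended on the fit: Treml2 passed in 5, Treml4 in 4 and Syk in 3 of 9 other fits with all libraries.

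Trem3 was also higher without overlap, at 63.2 to 70.6 against 31.4 to 45.9 (0.74 ± 0.51, adjusted p = 0.656). Trem2 had 6328, 6423 and 7085 normalized counts, all below young wild type (-0.26 ± 0.11, adjusted p = 0.288). Hcst (30.6 to 42.6 against 57.7 to 59.7) and Btk (1219 to 1248 against 1271 to 1492) were lower without overlap. Neither passed, at -0.63 ± 0.58 for Hcst (adjusted p = 0.781) and -0.16 ± 0.12 for Btk (adjusted p = 0.705). Card9, at 2232, 1865 and 2143, overlapped young wild type (-0.20 ± 0.14, adjusted p = 0.652). Tyrobp, at 2997, 3560.2 and 3730.1, also overlapped young wild type and differed from it by less than 1 standard error.

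In this comparison too, other myeloid markers were higher: 6 of 11 monocyte markers rose (median 2.74, sums of 14408 to 34757 in the libraries labelled young Trem1-/-) and 4 of 13 neutrophil markers rose (median 1.66, sums of 36075 to 70896). Of 12 microglia markers 1 fell (median -0.17). The part of these cells in the values of Trem1, Treml2, Treml4 and Syk was not tested.

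Between the libraries labelled aged Trem1-/- and aged wild type, 0 of the 10 genes passed, as did 0% of all genes with limma; 9.6% of all genes and 0 of the 10 had an unadjusted p under 0.05, and edgeR and DESeq2 also called 0 of the 10. All 10 genes overlapped between these groups, whereas 12.2% of all genes did not. Trem1 had a ratio of means of 0.71 (log2 difference -0.55 ± 0.45, adjusted p = 0.743), with 2 of the 3 libraries labelled aged Trem1-/- below all aged wild type libraries and 1 among them. Treml2, at 600.3, 424 and 672 against 1198, 483 and 847, differed by -0.50 ± 0.25 (limma, adjusted p = 0.533). Trem3, at 188, 68.4 and 144, Hcst, at 29.9, 29.9 and 67.7, and Card9, at 1963, 1461 and 1813, differed by 0.68 ± 0.51, 0.79 ± 0.58 and -0.22 ± 0.14. Syk, at 5797, 6613 and 6700, differed by -0.18 ± 0.11. Trem2, Treml4, Tyrobp and Btk differed by less than 1 standard error. The neutrophil sums (63644 to 147288 in the libraries labelled aged Trem1-/-) and monocyte sums (16530 to 21453) overlapped those of aged wild type.

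Between aged and young libraries labelled Trem1-/-, 0 of the 10 genes passed with limma, against 1.71% of all genes. An unadjusted p under 0.05 was found for 1 of the 10 (Trem2) and 15.2% of all genes (limma). With edgeR and DESeq2 the count was 0 as well. Groups did not overlap for Trem1 and Btk, 2 of the 10, against 21.2% of all genes. Trem1 (124 to 244 against 89.4 to 99.8) was higher at 0.74 ± 0.45 (adjusted p = 0.459), and Trem2 was at -0.25 ± 0.11 (adjusted p = 0.269). The differences were 0.85 ± 0.51 for Trem3, -0.20 ± 0.13 for Tyrobp, -0.19 ± 0.11 for Syk and -0.26 ± 0.14 for Card9, with adjusted p from 0.375 to 0.502. Of the monocyte markers 0 of 11 and of the neutrophil markers 1 of 13 rose.

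The difference between these 2 age effects was itself tested. It passed for 2 of the 10 genes, both negative, against 2.54% of all genes in either direction and 2.14% in the negative one. For Trem1 the age effect in the libraries labelled Trem1-/- was smaller by 3.40 ± 0.64 on the log2 scale than in wild type (difference -3.40, limma adjusted p = 0.00429), and this passed without any 1 of the 12 libraries (adjusted p up to 0.0217). For Treml2 the difference was -1.39 ± 0.36 (adjusted p = 0.0377), and it passed in 3 of the 12 fits with 1 library left out. Syk (-0.54 ± 0.16, adjusted p = 0.0634) and Treml4 (-1.94 ± 0.69, adjusted p = 0.153) had the same sign without passing. Trem2 (0.33 ± 0.15, adjusted p = 0.304) and Hcst (1.41 ± 0.81, adjusted p = 0.430) had the opposite sign and did not pass either. In the same test 4 of 11 monocyte and 2 of 13 neutrophil markers fell, with medians of -2.97 and -1.75. Their part in the Trem1 and Treml2 values was not tested. A larger young level in the libraries labelled Trem1-/- enters this difference as fully as a smaller aged level: for Trem1 the label moved the mean by 2.85 in young and by -0.55 in aged libraries.

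**Figure D4:**
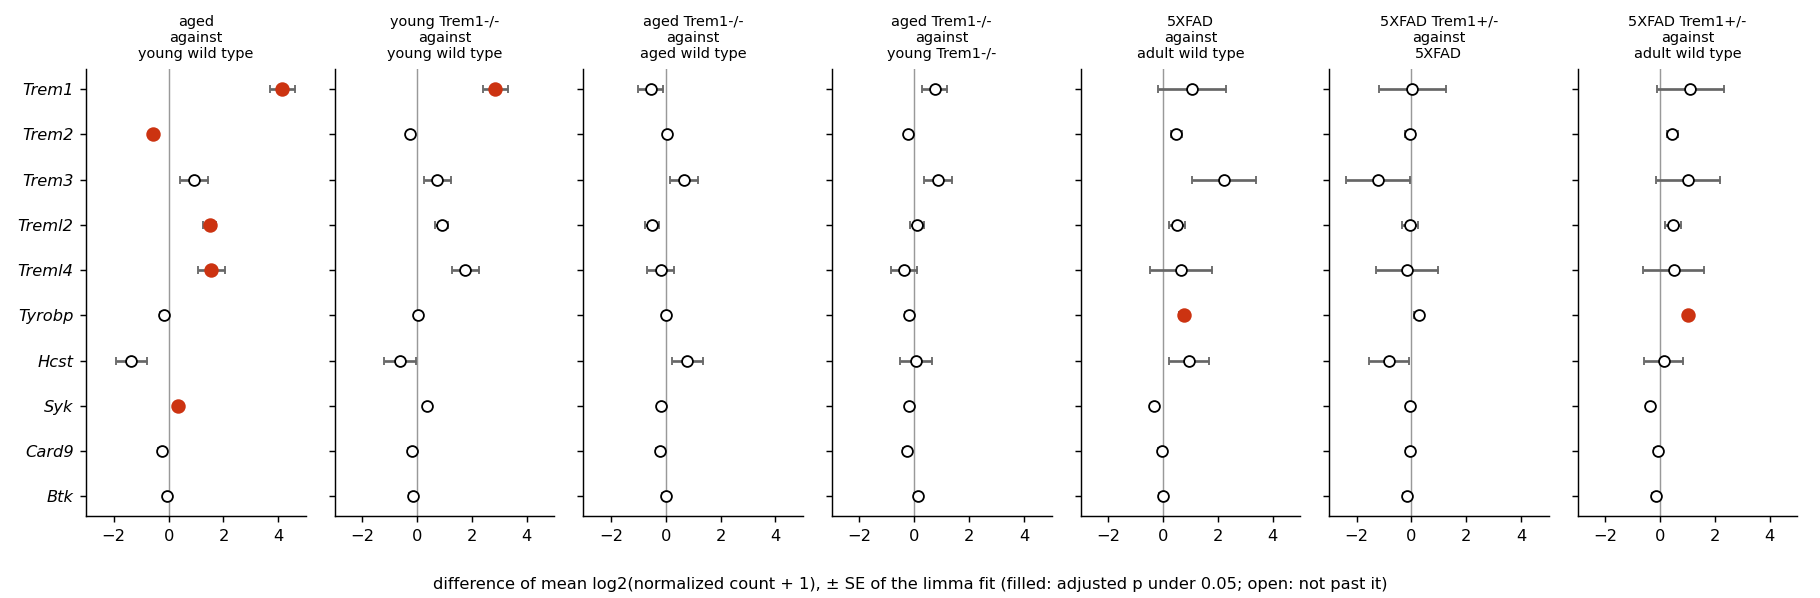
Fitted log2 differences of the 10 genes, on the log2(normalized count + 1) scale, with their SE, 1 panel per comparison; filled points have an adjusted p under 0.05 and open points do not. Among the 7 comparisons shown, which leave out the difference of the age effects, Trem1 at 4.14 and 2.85 are the values farthest from 0, and comparisons with the same reference group share its libraries.

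As inferred from the library columns, the authors' deposited table for aging compared young wild type with the libraries labelled aged Trem1-/-. Positive values mark higher levels in wild type. Of the 10 genes, 5 had an adjusted p under 0.05, against 7.32% of the 20305 genes with one. In the authors' deposited table Trem1 (-3.55), Trem3 (-1.72) and Treml2 (-1.01) had negative and Trem2 (0.50) and Card9 (0.46) had positive log2 fold changes. The authors' deposited table gave adjusted p-values of 8.48e-13 for Trem1, 0.00105 for Trem2, 0.00512 for Treml2, 0.0218 for Trem3 and 0.0358 for Card9.

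Of the 10 genes, the adaptor gene Tyrobp alone passed between 5XFAD and adult wild type. It had 2509.8, 2130.3 and 2745 normalized counts in adult wild type, 4457, 4911 and 3199 in 5XFAD, and 4099.9, 5326 and 5565 in the libraries labelled 5XFAD Trem1+/-. All 6 libraries with the 5XFAD transgenes were above all adult wild type libraries. Tyrobp rose by 0.75 ± 0.16 in 5XFAD against adult wild type (limma, adjusted p = 0.0224, ratio of means 1.70), and 1.98% of all 17025 genes tested passed. In the libraries labelled 5XFAD Trem1+/- against adult wild type it rose by 1.02 ± 0.16 (limma, adjusted p = 0.00267, ratio 2.03), again as 1 of the 10, against 2.78% of all genes. These 2 comparisons share the adult wild type libraries.

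The 5XFAD call was lost without adult wild type replicate 1 or 2 or 5XFAD replicate 1 or 2, with differences of 0.62 to 0.77 and adjusted p from 0.0589 to 0.131. Without adult wild type replicate 2, which stood apart, the value against the libraries labelled 5XFAD Trem1+/- was 0.92 (adjusted p = 0.0237). The authors' deposited table, with the opposite sign, gave Tyrobp a log2 fold change of -0.77 in wild type against 5XFAD (adjusted p = 0.00159), 1 of the 10 genes called, against 4.24% of genes with an adjusted p.

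**Figure D5:**
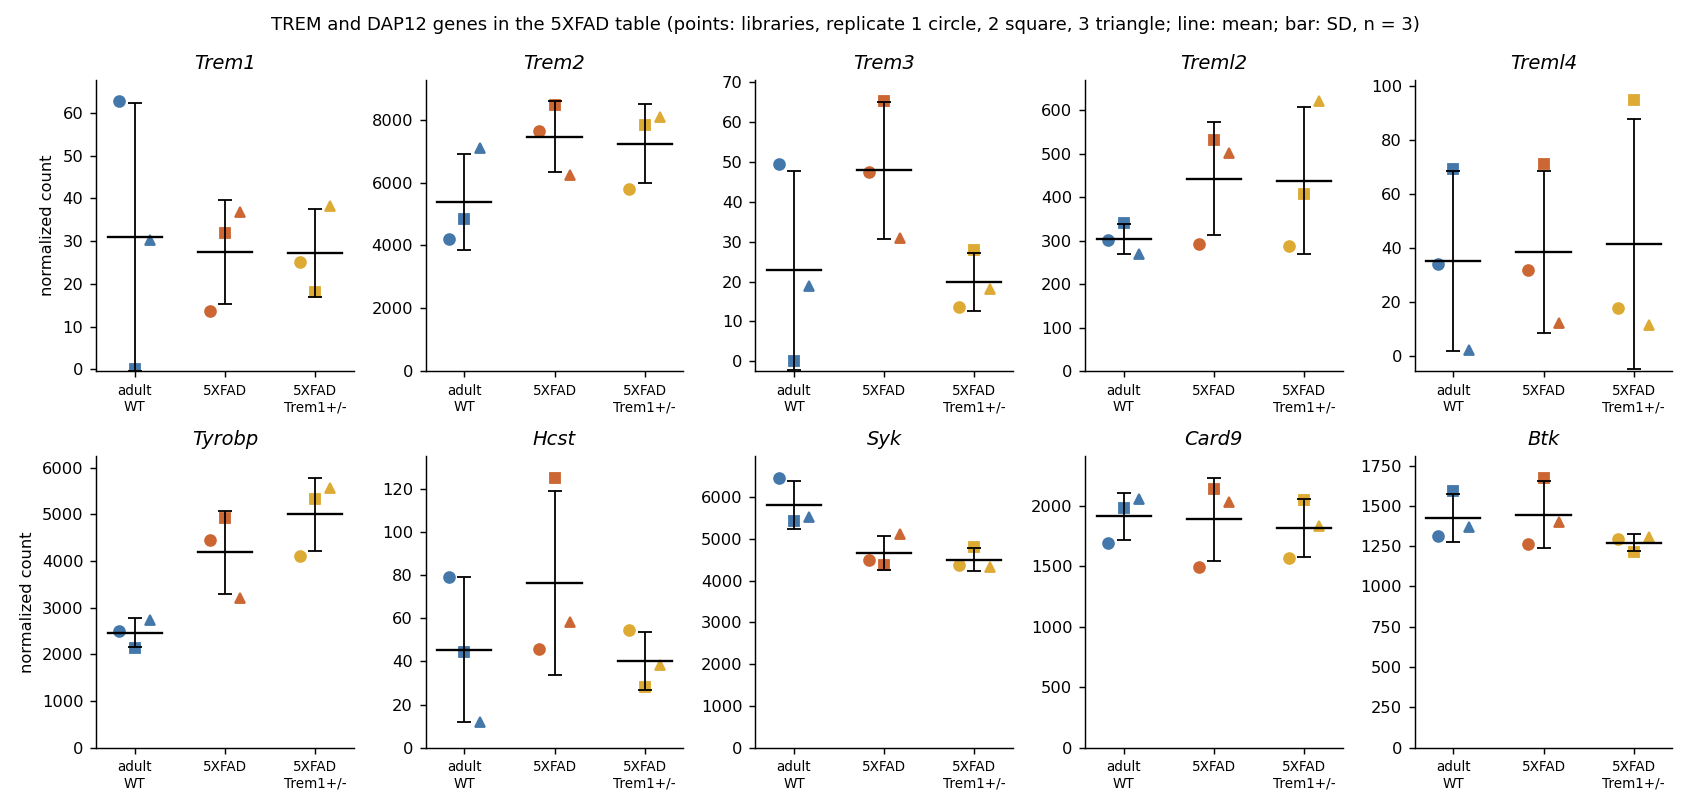
Normalized counts of the 10 genes in the 5XFAD table, 1 panel per gene, with the 3 groups along the horizontal axis; points are single libraries (replicate 1 circle, 2 square, 3 triangle), lines are means and bars are SD (n = 3). The 6 Tyrobp values of 5XFAD libraries (3199 to 5565) lie above the 3 of adult wild type (2130.3 to 2745), and replicate 2 is the highest Treml4 library in each group.

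Trem2 was higher on average in 5XFAD but did not pass. Its normalized counts were 4211, 4851 and 7109 in adult wild type and 7643, 8475 and 6248 in 5XFAD. The groups overlapped, with replicate 3 of adult wild type (7109) above replicate 3 of 5XFAD (6248). The log2 difference was 0.49 ± 0.19 (limma, adjusted p = 0.253), and without adult wild type replicate 3 it was 0.71 (adjusted p = 0.0339). The libraries labelled 5XFAD Trem1+/-, at 5792, 7834 and 8071, differed from adult wild type by 0.44 ± 0.19 (adjusted p = 0.281), and by 0.66 without that library (adjusted p = 0.0370). Without adult wild type replicate 1 both values were smaller, at 0.33 and 0.28 (adjusted p = 0.466 and 0.524). Scaling to the microglia markers raised every log2 difference of 5XFAD against adult wild type by 0.30. For the libraries labelled 5XFAD Trem1+/- against adult wild type it raised them by 0.075.

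Syk went the other way. Its normalized counts were 6460 in replicate 1, 5419 in replicate 2 and 5517 in replicate 3 of adult wild type, against 4481, 4367 and 5117 in 5XFAD and 4377, 4812 and 4318 in the libraries labelled 5XFAD Trem1+/-. All 6 of the latter were below all adult wild type libraries. Neither difference passed, at -0.32 ± 0.11 for 5XFAD (limma, adjusted p = 0.187) and -0.36 ± 0.11 for the libraries labelled 5XFAD Trem1+/- (adjusted p = 0.0954). Groups did not overlap for 2 of the 10 genes between 5XFAD and adult wild type (17.3% of all genes) and for 3 in the other comparison (25.5%), the third being Btk, at 1214 to 1306 against 1314 to 1591 (-0.16 ± 0.15, adjusted p = 0.653).

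The remaining receptors, Hcst and Card9 overlapped adult wild type in both 5XFAD groups, and none of them passed the test against it. Treml2 had 303, 340 and 269 normalized counts in adult wild type, 294, 532 and 502 in 5XFAD and 289, 406 and 620.1 in the libraries labelled 5XFAD Trem1+/-, with differences from wild type of 0.50 ± 0.29 and 0.46 ± 0.29. The first was 0.77 without 5XFAD replicate 1, and the second was 0.73 without replicate 1 and 0.18 without replicate 3 of the libraries labelled 5XFAD Trem1+/-. Trem3 had 49.5, 0 and 18.8 in adult wild type and 47.4, 65.4 and 31.1 in 5XFAD. Its difference of 2.23 ± 1.16 (limma, adjusted p = 0.381) was 0.57 without adult wild type replicate 2, the library at 0. Treml4 was highest in replicate 2 of each group (69.1, 71.2 and 94.7) and lowest in replicate 3 of each (2.26, 12.3 and 11.5), so that the spread within each group covered that between them. Hcst ranged from 12.1 to 79.2 in adult wild type, 45.6 to 125 in 5XFAD and 28.0 to 54.4 in the libraries labelled 5XFAD Trem1+/-, and 5XFAD differed from adult wild type by 0.95 ± 0.72 (adjusted p = 0.574). Card9 ranged from 1495 to 2139 over all 9 libraries and differed by less than 1 standard error in each comparison.

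Between the libraries labelled 5XFAD Trem1+/- and 5XFAD, 0 of the 10 genes passed, as did 0% of all genes with limma; 5.19% of all genes and 0 of the 10 had an unadjusted p under 0.05, and edgeR and DESeq2 called 0 of the 10. Tyrobp differed by 0.26 ± 0.16 (adjusted p = 0.931), Hcst by -0.82 ± 0.72 and Btk by -0.18 ± 0.15. Trem3 was lower without overlap, at 13.6 to 28.0 against 31.1 to 65.4 (-1.22 ± 1.16, adjusted p = 0.946), 1 of the 10 against 11.9% of all genes.

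In 5XFAD against adult wild type 0 of 13 neutrophil and 0 of 11 monocyte markers passed with limma, and 0 of them had an unadjusted p under 0.05. Their sums overlapped, at 13900 to 54095 and 20885 to 29653 for neutrophils and at 917 to 7781 and 2147 to 7888 for monocytes. Of the 12 microglia markers 3 fell and 1 rose (median -0.43), with sums of 435006 to 482749 in adult wild type and 350184 to 393861 in 5XFAD. In the libraries labelled 5XFAD Trem1+/- the microglia sums were 414086 to 467701, which overlapped adult wild type, and 2 markers rose. Border macrophage markers did not pass (0 of 7 with limma; 3 had an unadjusted p under 0.05 in 5XFAD and 1 in the libraries labelled 5XFAD Trem1+/-). All 7 were above 0 in both comparisons, with medians of 1.24 and 1.88 and sums of 255 to 1042 in adult wild type, 642 to 1993 in 5XFAD and 662 to 1129 in the libraries labelled 5XFAD Trem1+/-. Neuron markers (0 of 5 with limma, 3 and 2 at an unadjusted p under 0.05) had medians of 2.07 and 0.69, with sums of 67.1 to 118, 168 to 507 and 113 to 171. Of 5 astrocyte markers 1 rose in each comparison with adult wild type (sums of 250 to 786 in adult wild type, 1845 to 3457 in 5XFAD and 1509 to 2608 in the libraries labelled 5XFAD Trem1+/-), and the part of all these cells in the Tyrobp value was not tested.

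Around the 10 genes, 71 others of the pathway were listed in 6 groups, chosen with earlier results of these data known. Between aged and young wild type 17 of 69 tested rose and 5 fell, against 6.43% and 2.24% of all genes (median log2 difference 0.10, all genes -0.01). Most of the risen genes were other surface receptors. The list of DAP12- or ITAM-coupled receptors also held the adaptor gene Fcer1g. Of its 15 genes, 8 rose and 1 fell, with a median of 2.54. Among them Clec4e (Mincle, a receptor for glycolipids and dying cells) rose by 3.03 ± 0.39, Cd300lb by 2.70 ± 0.43 and Cd300ld by 2.39 ± 0.32, whereas Siglech, a DAP12-coupled lectin that is also among the microglia markers, fell by 0.67 on the log2 scale. Of 11 inhibitory paired receptors 4 rose and 2 fell, with Cd300lf at 2.82 ± 0.31 and Pirb at 2.48 ± 0.27. Of 6 ligand and protease genes 2 rose: Pglyrp1, which encodes a TREM1 ligand stored in neutrophil granules, by 2.93 ± 0.41 and Apoe, a TREM2 ligand, by 0.80 ± 0.14.

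Of 21 proximal kinases and adaptors tested, 2 rose and 2 fell. The Src-family kinase gene Fgr (2.11 ± 0.32) and the exchange factor gene Vav3 (3.75 ± 0.72) rose, and Plcg1 (-0.50 ± 0.13) and Vav2 (-0.32 ± 0.09) fell. The falls of Plcg1 (-0.12) and Vav2 (0.064) did not pass with scaling to the microglia markers, and Vav2 then changed sign. The calls of Plcg1 and Vav2 were also lost without some single libraries. In the group around Card9 (Bcl10, Malt1, Traf6 and the NF-kB and NFAT genes) 0 of 7 passed with limma and 0 had an unadjusted p under 0.05. Of 9 phosphatases and other brakes 1 rose, Ptpn11 (0.51 ± 0.13), whose call was lost in 3 of the 6 fits with 1 library left out. The neutrophil and monocyte sums given above moved with these groups too, and their part in them was not tested.

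When the libraries labelled young Trem1-/- were set against young wild type, 9 of 69 genes rose, where 2.58% of all genes passed in either direction. They included Clec4e (2.72 ± 0.39), Sirpb1c (2.88 ± 0.59), Cd300ld (1.92 ± 0.32), Cd300lf (2.15 ± 0.31), Pirb (2.05 ± 0.27) and Fgr (1.69 ± 0.32). Leaving out young wild type replicate 3, or replicate 2 or 3 of the libraries labelled young Trem1-/-, gave 5 in place of 9. The test of the difference between the age effects passed for 7 of the 69, all negative, among them Clec4e (-3.01 ± 0.55), Cd300lf (-2.66 ± 0.44) and Pik3cd (-0.66 ± 0.16), the PI 3-kinase catalytic subunit of leukocytes. Of all genes 2.14% passed in that direction. The count of 7 was 4 without aged wild type replicate 1, 13 without aged wild type replicate 2, 11 without replicate 1 of the libraries labelled aged Trem1-/- and 5 to 10 without any other single library, and it was 0 with limma without trend and robust and 15 with DESeq2. Between the libraries labelled aged Trem1-/- and aged wild type 0 of 69 passed with limma, edgeR or DESeq2. An unadjusted p under 0.05 (limma) was found for 8 of the 69 and for 9.6% of all genes. Between aged and young libraries labelled Trem1-/- Apoe rose by 0.84 ± 0.14 and Adam10, a protease that sheds TREM2, fell by 0.38 (adjusted p = 0.0436), a call lost without any 1 of the 6 libraries.

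In 5XFAD against adult wild type 3 of 68 rose and 1 fell, against 1.98% of all genes in either direction. Apoe rose by 3.22 ± 0.24 (limma, adjusted p = 0.000837), from 9221 ± 2383 to 84359 ± 12546 normalized counts. The receptor gene Clec7a (Dectin-1, which signals through Syk and Card9) rose by 2.38 ± 0.22 (adjusted p = 3.28e-05). The adaptor gene Fcer1g, which carries an ITAM as Tyrobp does, rose by 0.84 ± 0.16 (adjusted p = 0.0140), and its call was lost in 3 of the 6 fits with 1 library left out. Siglech fell by 0.47 on the log2 scale (adjusted p = 0.0152), and this was lost without adult wild type replicate 1. It also did not pass with scaling to the microglia markers. That scaling cannot check this fall, because Siglech is itself among these markers. Apoe (3.19 ± 0.24) and Clec7a (2.82 ± 0.22) also rose in the libraries labelled 5XFAD Trem1+/- against adult wild type, where 2 of 68 rose, against 2.78% of all genes in either direction.

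The genes with the most similar course over the libraries of a table are given as a description, with Pearson's r of log2 values and no test, since the points share their libraries and groups. Over the 12 aging libraries Trem1 was most like Mrgpra2b (r = 0.964), Slfn2 (0.962) and Ntng2 (0.961). Treml2 was most like C5ar1, the receptor for complement fragment C5a (0.975), followed by Dctn1 (0.957). Trem2 was most like Pttg1ip (0.956), Eva1b (0.947) and Rgs10 (0.947), and Syk was most like Cd93 (0.951). Tyrobp was most like the ribosomal protein gene Rpl22 (0.908). Over the 9 libraries of the 5XFAD table Tyrobp was most like Ccl6 (0.971), Npc2 (0.969) and Rpl27a (0.969), and Trem3 was most like Tlr8 (0.991). Trem2 was most like Rpl21-ps8 (0.978) and Rps27a (0.974) there, so none of the leading genes of Trem1, Trem2 or Tyrobp was shared between the tables.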

How the data were processed

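Primary mouse brain microglia were profiled by RNA sequencing as 21 libraries in 7 groups. Per the submitters' processing notes, fastp, HISAT2 2.0.5, featureCounts 1.5.0-p3 and DESeq2 1.20.0 were used with GRCm38; the annotation release and strand setting were not given in the sources used here. The deposited values per library were a signal: normalized counts, from which whole reads (within 0.05) were recovered for at least 99.9956% of values. For 1 comparison per table the authors deposited a log2 fold change with its error, a Wald statistic (a score) and p-values. The groups compared were inferred from the library columns in each table. Each table was normalized and tested on its own.

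Genes with a mean of at least 10 normalized counts were tested (16086 and 17025). Values entered limma 3.58.1 in R 4.3.3, with trended prior variance and robust estimation, as log2(normalized count + 1). All groups of a table were in 1 fit, with Benjamini-Hochberg adjustment over all genes and a threshold of 0.05. Adding 1 shrinks fold changes of low genes, but a library at 0 can enlarge the difference of mean log2 values. Trem3 in 5XFAD against adult wild type had a log2 difference of 2.23 with a ratio of means of 2.10. The members and lists were chosen with earlier results of these data known. Other pathway genes were named by rule: up to 4 per list with the smallest p past the threshold; genes of similar course were the 3 with the highest r. Alternatives were a pseudocount of 5, no filter, limma without trend and robust, only the groups compared, TMM and microglia-marker scaling, edgeR 4.0.16, DESeq2 1.42.0 on recovered reads, a replicate block and leaving out each library. Scripts were tested on simulated data. Replicates differed beyond sampling noise (chi-square divided by its degrees of freedom, 11.9 to 41.7). Of the symbols, 53749 of 54532 matched GENCODE M21. Sequences are from RefSeq (GRCm38.p6), and shared stretches were sought with blastn 2.17.0.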

Additional observations from a re-analysis of the deposited data

Results flagged for a closer look

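The age effect differed between the libraries labelled Trem1-/- and wild type for 2 of the 10 genes, by a test of the difference itself. For Trem1 the difference was -3.40 on the log2 scale, and for Treml2 it was -1.39. In both genes the libraries labelled young Trem1-/- were above young wild type and the aged groups overlapped. No library of a group of 3 was tested as an outlier.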

How the results depend on the processing

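The count of changes covered 51 differences of the 10 genes. Uncalled differences smaller than their standard error were left out, so their changes of sign were not counted. Among these, Trem1 in 5XFAD against adult wild type had a log2 difference of 1.07 ± 1.23 but a ratio of means of 0.888. Of the 795 alternative values counted, 728 kept their direction and side of the threshold, 37 lost a call and 24 gained a call. The other 6 changed sign, all with microglia-marker scaling and none of them called. These were Tyrobp (0.20) and Card9 (0.14) in aged against young wild type, and Trem2 (0.042), Tyrobp (0.084), Syk (0.10) and Card9 (0.029) between aged and young libraries labelled Trem1-/-. Among other pathway genes Vav2 changed sign (0.064) in aged against young wild type. This scaling moved the median of all genes by 0.38 in aged against young wild type and by 0.16 for the label in young mice, 0.29 for age within the label, 0.30 in 5XFAD against adult wild type and -0.23 between the 5XFAD groups. The share of calls that were higher went from 62.9% to 99.6% for age within the label, from 81.6% to 99.2% in 5XFAD against adult wild type, and from 73.4% to 84.3% for the libraries labelled 5XFAD Trem1+/- against adult wild type.

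Of the 5 genes called in aged against young wild type, limma without trend and robust called 2, the fit of only the groups compared 3 and edgeR 3, and leaving out single libraries gave 3 to 4. Where 1 was called, in the comparison of the label in young mice, the count was 2 with a pseudocount of 5, 3 without the filter, 4 with only the groups compared, 4 with microglia-marker scaling and 3 with DESeq2, and 1 to 2 with a library left out. For the difference of the age effects (2), limma without trend and robust called 0 and leaving out libraries gave 1 to 3. For 5XFAD against adult wild type (1) it called 0, microglia-marker scaling 2, and leaving out libraries gave 0 to 2. For the libraries labelled 5XFAD Trem1+/- against adult wild type (1) the counts were 0 without trend and robust, 2 without the filter, 2 with DESeq2, and 1 to 2 with a library left out. The other 3 comparisons had a count of 0 under each alternative run. Of the other pathway genes, 15 fell with DESeq2 and 0 with limma without trend and robust in the difference of the age effects (7; 4 to 13 with a library left out), and 39 rose with microglia-marker scaling in aged against young wild type (17). The cause was not tested.

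Deviations from the group means of same-numbered libraries had a median correlation of 0.0119 in the aging table (0 of 18 pairs over 0.1). There 3 of 12 libraries correlated best with a library of their own number. In the 5XFAD table the median was 0.0116 (1 of 9 pairs over 0.1), but 7 of 9 libraries correlated best with one of their own number. With a replicate block, limma calls over all genes went from 337 to 628 for 5XFAD against adult wild type. For the libraries labelled 5XFAD Trem1+/- against adult wild type they went from 473 to 848. Whether the numbers mark a pairing in the 5XFAD table was not settled. In the aging table the block called 2 of the 10 genes for the label in young mice and 3 for the difference of the age effects. Treml2 (limma, adjusted p = 0.0147) was gained in the first and Syk (0.0406) in the second. Treml4 was lost in aged against young wild type (0.0532).

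Trem1, Trem3, Treml4 and Hcst had the lowest mean normalized counts of the 10 genes, with 0 to 295 reads per library. The part of depth in their spread was not tested.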
